A study of Bos taurus with 4 samples.

Results

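The annotation of small RNA reads from bovine germinal vesicle oocytes gave the name of 7SK RNA, with 66 different gene copies, to 5744 distinct sequences of 18 to 36 nt. The copies were taken as every name that the annotation files list under the Rfam family of 7SK (RF00100), each with its own Ensembl gene identifier, and they made up 66 of 38611 names. A sequence that carried several names was divided equally among them. The germinal vesicle stage is the stage at which the oocyte rests in prophase of meiosis. All 4 libraries came from *Bos taurus* oocytes of this stage, with no further genotype, age or treatment in the labels: 2 input libraries made without an antibody and 2 libraries of RNA recovered with a Proteintech antibody against TDRKH (TDRKH IP). TDRKH has tudor domains and binds the PIWI proteins, the carriers of piRNAs. No IP with a control antibody was analysed here, so RNA bound with TDRKH cannot be told apart from RNA that stayed in the IP for other reasons. The labels do not say whether replicates came from separate collections of oocytes, so p-values measure only the spread between these libraries, which may be technical.

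7SK is an abundant small nuclear RNA made by RNA polymerase III. It holds the elongation factor P-TEFb, together with HEXIM and LARP7 proteins, in an inactive complex and so limits transcription by RNA polymerase II. Mammalian genomes hold the gene for it and, beside it, many related copies, most of them pseudogenes that may have lost parts of the RNA or sit next to other repeated sequence. A read named for 7SK can therefore be a fragment of the nuclear RNA or a read of a copy's locus, and its sequence, length and first base are the data that describe it. piRNAs of animals mostly begin with a uridine, read as T in sequencing, and those that arise by the ping-pong cycle tend to carry an A at base 10.

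2 kinds of sequence carried the 7SK name. The first is shown by the reads of copy ENSBTAG00000043250.1, which were joined into contigs by shared 13-mers. Of 190 sequences of this copy 188, with 254 of 257 reads, could be placed on 2 contigs with at most 2 mismatches. They are shown because the reads of this RNA were much scarcer in the IPs. The order of the contigs in the RNA was not tested. The capitals mark positions 119 to 154 of contig 1, a 36 nt sequence that is among the 2 with the most reads of those named for at least 4 copies.
Contig 1, 159 nt: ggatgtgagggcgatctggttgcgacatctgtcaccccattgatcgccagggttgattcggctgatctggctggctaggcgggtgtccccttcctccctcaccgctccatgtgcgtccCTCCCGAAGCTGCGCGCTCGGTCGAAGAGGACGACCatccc
Contig 2, 149 nt: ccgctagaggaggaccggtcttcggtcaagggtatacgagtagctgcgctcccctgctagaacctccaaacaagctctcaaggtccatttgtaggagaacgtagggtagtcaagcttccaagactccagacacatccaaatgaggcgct

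The second kind is shown by the 5 most abundant 7SK-named sequences, which were the same 5 in the inputs and in the IPs. Capitals mark base 1 and base 10.
ENSBTAG00000043171.2, 26 nt: TcctttaggAtggactggttggatct
ENSBTAG00000043171.2, 25 nt: TcctttaggAtggactggttggatc
ENSBTAG00000043171.2, 26 nt with another base at position 21: TcctttaggAtggactggtttgatct
ENSBTAG00000045101.1, 26 nt: TtctttaccAtctgagccactaggga
ENSBTAG00000045413.2, 26 nt: TctttgcgaCcccatggactgtagcc
All 5 began with T, 4 of them had A at position 10, and each carried the name of 1 copy alone.

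Levels are given as RPM, the reads of a feature for every 1000000 listed reads of its library. 7SK-named reads made up 2258 and 2737 RPM in input 1 and input 2, and 3679 and 3746 RPM in TDRKH IP 1 and IP 2. Both IPs lay above both inputs. The mean rose from 2497 ± 339 RPM (SD, n = 2) to 3712 ± 47.6 RPM (SD, n = 2), a log2 change of 0.57 with a standard error of 0.08 and an adjusted p of 0.000350 in edgeR's quasi-likelihood test over 5351 names with structural RNA families summed. Of all names tested there, 16.3% were higher and 58.4% lower, and the median log2 change was -2.43. Each value is a share of the listed reads of its library, and in such bulk libraries fewer cells of a type and less RNA per cell cannot be told apart. The call was lost without the filter on low values, at an adjusted p of 0.102, and when each distinct sequence was counted once, at a log2 change of 0.15 and an adjusted p of 0.0958.

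Reads were then divided by whether their sequence recurred elsewhere. A 7SK-named sequence was called recurring if it shared at least 18 consecutive bases, on either strand, with a listed sequence that had no 7SK name and had the name of a piRNA cluster, a genomic interval that unitas lists as a source of piRNAs. Of the 5744 sequences 5460 recurred and 284 did not. No sequence carried a 7SK name and a piRNA cluster name together, with 0 of 2462 and 3743 reads in the inputs and 0 of 41578 and 42033 in the IPs. The files thus assign a read to one or the other. This 0 can come from the naming alone and is not read as a measured absence. The recurrence was seen only between sequences. All 141 sequences named for at least 4 copies were without recurrence, as were 132 of 5464 named for 1 copy.

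As sets, recurring reads and sequences named for at least 4 copies moved in opposite directions. Recurring reads held 2160 and 2629 RPM in the inputs and 3669 and 3736 RPM in the IPs, 1.55-fold more in the mean. They were 95.7% and 96.1% of the 7SK reads of the inputs and 99.7% of those of each IP. Sequences named for at least 4 copies held 68.6 and 68.7 RPM in the inputs (74 and 93 reads) and 1.08 and 1.18 RPM in the IPs (12 and 13 reads), and were 60.9-fold lower in the IPs. All non-recurring reads together fell less, from 98.2 and 107.8 RPM to 9.47 and 9.93 RPM, or 10.6-fold. In the IPs 54 and 68 of the 106 and 112 non-recurring reads belonged to 1 copy, ENSBTAG00000044686.1, which is described below. The non-recurring reads of that copy were an exception, with overlapping groups. Counted whole, they held 4.63 and 9.60 RPM in the inputs and 4.85 and 6.15 RPM in the IPs. Because this division was made with the values known, it is a description and carries no test. Matches were sought in the listed sequences of all 4 libraries pooled. The IPs listed 1328333 and 1354763 distinct sequences, against 336526 and 377640 in the inputs. The division by recurrence thus rests mostly on the IPs, and part of the difference can be built into it.

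Copies differed in the same way. With each copy as a feature, 20 of 66 passed the filter on low values among 5452 tested names: 9 were higher in TDRKH IP, 3 were lower and 8 did not pass the threshold of an adjusted p of 0.05. Over all tested names 16.3% were higher and 58.5% were lower, and the median log2 change was -2.48. The other 46 copies were too low to be tested, and 24 of them had at most 10 reads over all libraries. The lowest, ENSBTAG00000042960.1 and ENSBTAG00000043860.1, had a single read, in input 1. The 5 copies with the most reads held 90.6% and 88.6% of the 7SK reads of the inputs and 92.5% and 92.4% of those of the IPs, so the total above is mostly theirs. Without input 1 fewer copies were higher and fewer lower, and the same held over all names, where the median log2 change was then -1.10. TMM factors made 17 higher and 3 lower, and bovine microRNA reads as library size 17 higher and 0 lower. These scalings moved the median of all names from -2.48 to -1.11 and 2.22. Of all 5452 names they made 1846 and 3301 higher and 2557 and 506 lower. With no filter 2 of 53 copies were higher and 7 lower, against 255 and 2002 of 31100 names. A copy that passed the filter through 1 group alone had to differ, so these counts describe the tested copies and not all 66.

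The copy with the most reads was ENSBTAG00000043171.2. It held 847 and 1158 RPM in the inputs and 1358 and 1446 RPM in the IPs, and the IPs lay above the inputs. It rose by a log2 change of 0.48 ± 0.12 (SE), with an adjusted p of 0.00868 that became 0.0722 without input 1 and 0.320 with no filter. With each distinct sequence counted once, and the number of distinct sequences as library size, it was lower in the IPs instead (log2 change -0.44, adjusted p 0.00123). The IPs were read much deeper than the inputs, and the effect of depth on such counts was not tested. ENSBTAG00000045101.1 followed with 500.0 and 528 RPM in the inputs and 807 and 626 RPM in the IPs, a log2 change of 0.48 ± 0.12 with an adjusted p of 0.00771. Its call was lost without either input, at adjusted p of 0.267 and 0.225, and counting each distinct sequence once gave a log2 change of -0.039. IP 1 stood apart from IP 2 here by more than the inputs did from each other.

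ENSBTAG00000045413.2 and ENSBTAG00000045419.1 had the closest replicates. The first held 310 and 319 RPM in the inputs and 490.0 and 498 RPM in the IPs (log2 change 0.65 ± 0.06, adjusted p 6.34e-05). For the second the inputs gave 244 and 252 RPM and the IPs 414 and 441 RPM (log2 change 0.79 ± 0.07, adjusted p 4.83e-05). Both calls held under all 15 alternatives run.

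Among the 5 copies with the most reads ENSBTAG00000042596.2 had the largest log2 change, from 146 and 168 RPM to 335 and 452 RPM. Its log2 change was 1.32 ± 0.17 with an adjusted p of 0.000274, which became 0.100 without input 1 and 0.0859 without input 2. Counting each distinct sequence once turned the change to -0.20 (adjusted p 0.302). ENSBTAG00000043768.2 held 29.1 and 54.0 RPM in the inputs and 78.7 and 82.4 RPM in the IPs, a log2 change of 0.92 ± 0.20 (adjusted p 0.00405). ENSBTAG00000043935.1 went from 10.5 and 17.1 RPM to 31.7 and 32.5 RPM, a log2 change of 1.2 ± 0.22 (adjusted p 0.00182). ENSBTAG00000044677.1 went from 15.8 and 22 RPM to 30.1 and 31.0 RPM, a log2 change of 0.67 ± 0.19 (adjusted p 0.0149, and 0.123 without input 1 or 0.0628 without TDRKH IP 2). In each of these the IPs agreed within a few RPM of each other except in ENSBTAG00000042596.2, and no IP overlapped an input.

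ENSBTAG00000044686.1 did not pass, with 14.8 and 31.8 RPM in the inputs and 34.4 and 40.1 RPM in the IPs (adjusted p 0.0656). It passed with the replicate block (log2 change 0.65, adjusted p 0.0407). Without TDRKH IP 1 the log2 change was 0.75. It also passed with TMM factors (2.01, adjusted p 9.23e-05) and in DESeq2 (2.82, adjusted p 3.50e-16). The same held with reads without a piRNA cluster name (2.51, adjusted p 1.89e-05) or microRNA reads (5.39, adjusted p 9.81e-69) as library size. These scalings moved the median of all names from -2.48 to -1.11, -0.35, -0.61 and 2.22 in turn. The ninth higher copy, ENSBTAG00000044754.1, was outside the 10 most abundant by RPM in the higher group and is named after its values were seen. It had 0.463 and 1.11 RPM in the inputs, from 1 and 3 reads, and 4.08 and 5.89 RPM in the IPs, and it passed the filter through the IPs alone, so its call is not read as a difference. Of the 8 copies that did not pass, 4 had overlapping groups. The share of all names with overlapping groups was not measured, so this count is not read as a result.

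The 3 lower copies formed a distinct set. ENSBTAG00000043250.1, whose contigs are printed above, held 27.3 and 34.6 RPM in the inputs and 0.590 and 0.523 RPM in the IPs, a log2 change of -5.68 ± 0.34 with an adjusted p of 7.98e-06. The other two were named after their values were seen: ENSBTAG00000043482.1 fell from 11.6 and 9.84 RPM to 0.141 and 0.109 RPM (log2 change -6.06 ± 0.59), and ENSBTAG00000043639.1 from 11.3 and 9.13 RPM to 0.0853 and 0.0692 RPM (log2 change -6.49 ± 0.61). They share much of their sequence, since no read of either was named for it alone. In ENSBTAG00000043250.1 reads named for it alone made up 56.4% of the count left after shared reads were divided among their names. The 3 are therefore not independent, and each passed the filter through the inputs alone, so that a lower value in the IPs was built into their being tested. All 3 calls were lost with bovine microRNA reads as library size, at adjusted p of 0.0649, 0.119 and 0.0556.

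**Figure D1:**
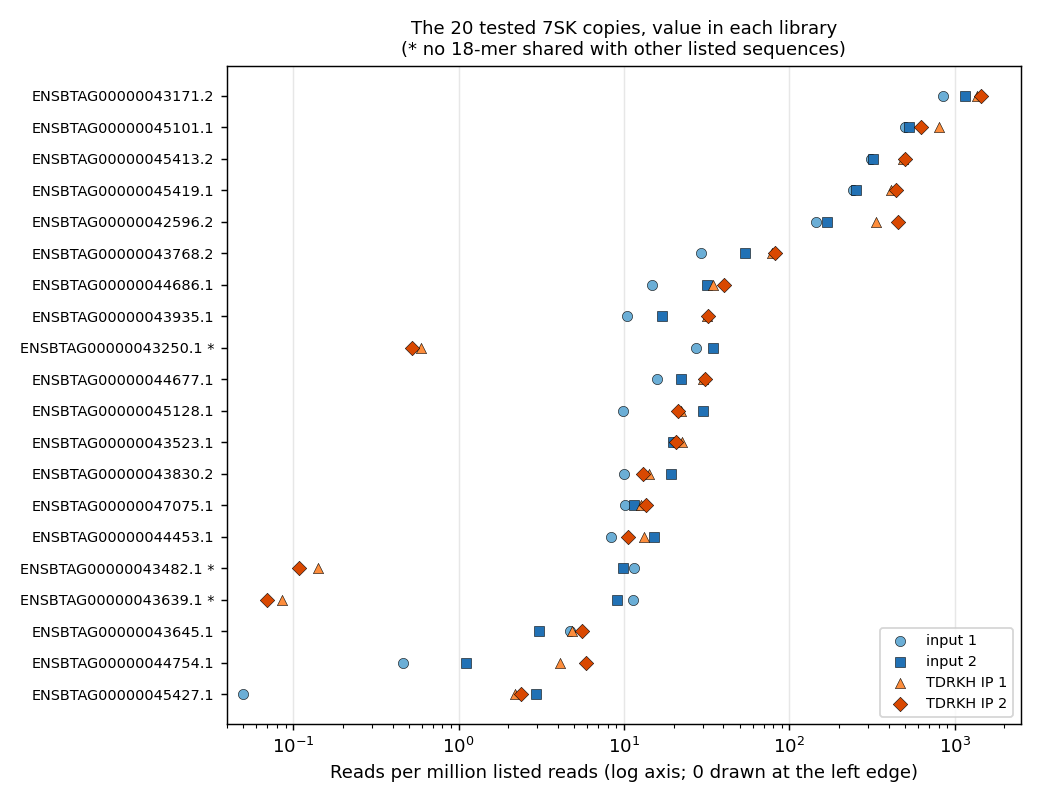
Each row is 1 of the 20 tested 7SK copies and each point the value of 1 library in RPM, on a log axis; circles and squares are the inputs, triangles and diamonds the TDRKH IPs, and a value of 0 is drawn at the left edge. In the 3 copies marked with an asterisk the IP points lie far to the left. In the copies with the most reads the IP points lie to the right of the input points.

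The copies also differed in how far their reads recurred. Sequences of 19 copies shared 18-mers with sequences of at least 10 piRNA cluster names; 17 of the 19 were tested, with 9 higher, 0 lower and 8 not past the threshold. Together the 19 held 2182 and 2654 RPM in the inputs and 3676 and 3742 RPM in the IPs. By contrast 40 copies shared no 18-mer with any listed sequence outside 7SK, and held 75.9 and 82.6 RPM in the inputs and 2.14 and 2.33 RPM in the IPs. The 3 of them that were tested are the lower copies above, which the filter admitted through the inputs, and the others were too low, so the calls themselves set up no contrast between both sets. The other 7 copies had fewer matches, and none was tested. Reads of ENSBTAG00000043171.2 recurred under 626 piRNA cluster names on the same strand and 617 on the opposite strand, on 30 chromosomes, and those of ENSBTAG00000045413.2 under 982 and 964. Which repeated element these letters belong to was not tested, as no library of repeats was used here.

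**Figure D2:**
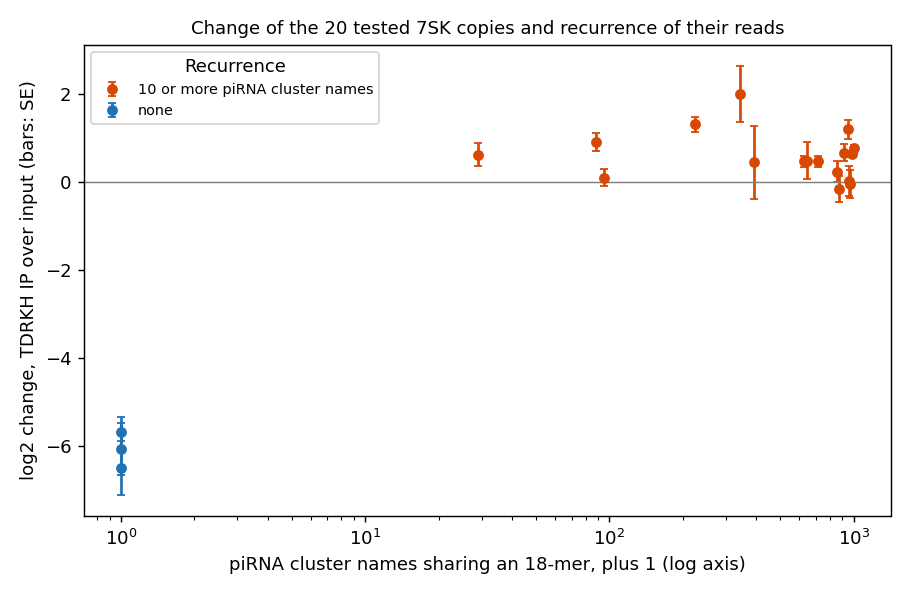
Each point is 1 tested 7SK copy, with the number of piRNA cluster names that share an 18-mer with its reads (the larger of both strands, plus 1, log axis) against its log2 change in TDRKH IP over input; bars are standard errors. The 3 copies with no such name lie between -6.49 and -5.68, and the 17 others between -0.15 and 2.0.

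Both kinds of read occurred under the names of single copies. Counted whole, recurring reads of ENSBTAG00000043171.2 held 837 and 1150 RPM in the inputs and 1358 and 1446 RPM in the IPs, while its 93 sequences named for at least 4 copies held 58.4 and 43.6 RPM in the inputs (63 and 59 reads) and 0.718 and 0.633 RPM in the IPs (8 and 7 reads). For ENSBTAG00000042596.2 the recurring reads went from 145 and 165 RPM to 336 and 453 RPM, and the widely named ones from 12 and 28.1 RPM to 0.180 and 0.542 RPM. ENSBTAG00000043768.2 held 28.7 and 53.2 RPM of recurring reads in the inputs and 78.7 and 82.4 RPM in the IPs, and 4 and 10 widely named reads in the inputs against 0 and 1 in the IPs. A single copy name therefore covered reads that were higher and reads that were lower in the IPs. The widely named reads of these copies all came from the same 141 sequences and cannot be placed in 1 copy. Of the 141, 140 also carried the name of ENSBTAG00000043250.1. Counted whole, a read can appear under several of these names, so the copies are not separate results. ENSBTAG00000045101.1, ENSBTAG00000045413.2 and ENSBTAG00000045419.1 had no read named for at least 4 copies.

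Reads on the contigs of ENSBTAG00000043250.1 lay along both contigs, unevenly. On contig 1 coverage was highest in the stretch in capitals, with 36 reads or 33.4 RPM at position 135 in input 1 and 30 reads or 22.2 RPM at position 132 in input 2. On contig 2 the highest points were 14.8 RPM at position 25 in input 1 and 20.7 RPM at position 95 in input 2, so the inputs did not share a peak there. TDRKH IP 1 and IP 2 reached at most 4 reads at any position of either contig, which is 0.359 and 0.362 RPM. The 36 nt sequence in capitals was read 4 and 3 times in the inputs and 0 times in the IPs. These are few reads, and the shape of the profile is at the limit of the depth.

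**Figure D3:**
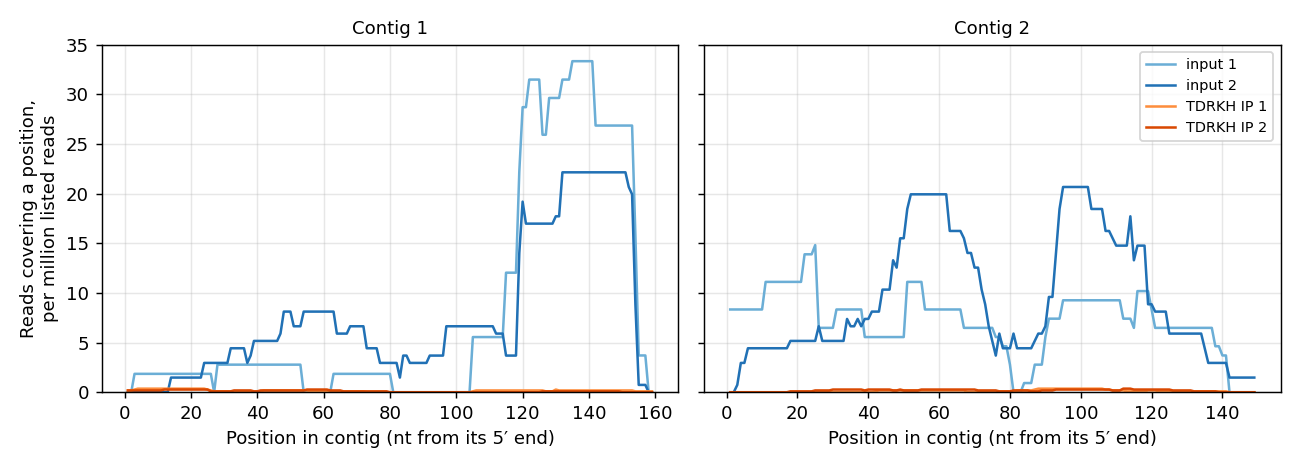
The x axis is the position along contig 1 (left) and contig 2 (right) of ENSBTAG00000043250.1 and the y axis the coverage in RPM, with a line for each library. The inputs reach 33.4 and 22.2 RPM on contig 1, and both IPs run along the bottom axis at no more than 0.362 RPM.

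First base, base 10 and length were described over all 7SK reads. A first T was found in 85.2% and 86.3% of reads in the inputs and 87.8% and 85.8% in the IPs, and the groups overlapped. Over all reads with a piRNA cluster name the shares were 87.7% and 88.5% in the inputs and 88.6% and 87.8% in the IPs. An A at position 10 was found in 63.7% and 65.0% of 7SK reads in the inputs and 62.8% and 60.0% in the IPs, and in 40.9% and 40.8%, and 42.2% and 41.6%, of piRNA cluster reads. The 7SK share lay above that of the cluster reads in all 4 libraries, and most of it came from the 2 largest copies. In ENSBTAG00000043171.2 an A at position 10 was found in 89.8% to 91.8% of reads, and in ENSBTAG00000045101.1 in 85.7% to 88.0%. ENSBTAG00000045413.2, with a first T in 86.2% to 87.2%, had it in 9.27% to 11.2% only. The mean length was 24.3 and 24.4 nt in the inputs and 24.0 and 23.9 nt in the IPs. With 2 libraries in each group the smallest p that the two-sided exact permutation test can give is 0.33, and that was the value for position 10 and for length. With each distinct sequence counted once, a first T was found in 73.0% and 71.8% of sequences in the inputs and 67.1% and 66.1% in the IPs, and an A at position 10 in 50.2% and 43.1%, and 35.7% and 35.2%. The effect of the different depth of inputs and IPs on these shares was not tested.

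The non-recurring reads had another form in the inputs. Only 27.4% of them began with T in each input (29 of 106 and 40 of 146 reads, Wilson 95% intervals 19.8% to 36.5% and 20.8% to 35.1%), and 40.6% and 34.9% began with C. Their mean length was 27.2 nt in both inputs, and 23.6% and 22.6% of them were 33 to 36 nt long, where recurring reads had 0% in both. The upper limit of 36 nt is that of the listed reads, so longer fragments were not seen. In the IPs the few non-recurring reads were 22.2 and 22.3 nt long and 74.4% and 76.8% began with T. Of these reads 54 and 68 were of ENSBTAG00000044686.1, against 5 and 13 in the inputs. The groups thus hold different mixes of sequences. Among sequences named for at least 4 copies the first-T share stayed low in all libraries, at 20.3% and 24.7% in the inputs and 16.7% and 23.1% in the IPs, the latter from 12 and 13 reads. These intervals cover counting error only, as PCR copies are counted.

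**Figure D4:**
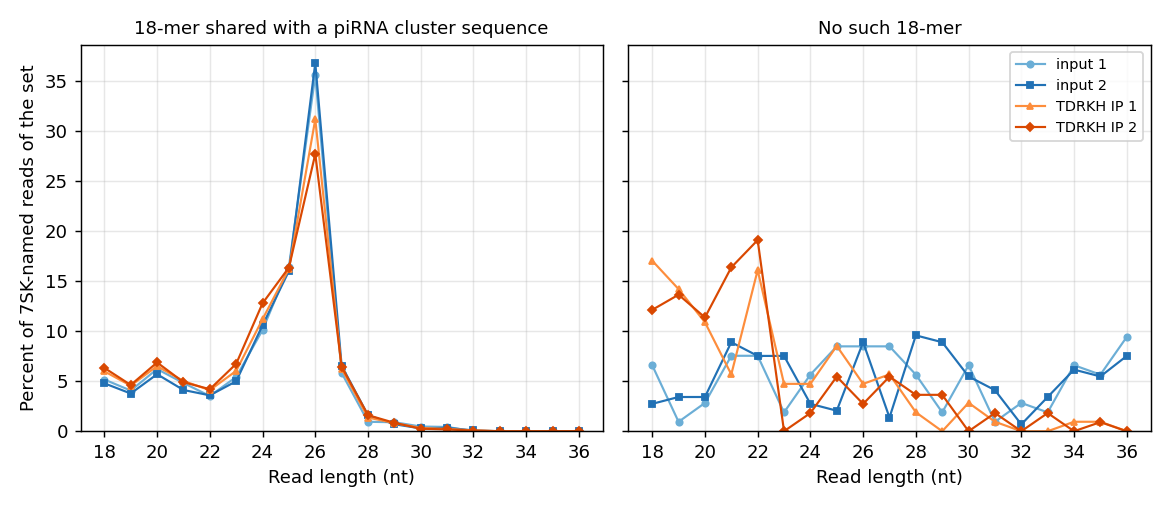
Read length in nt on the x axis and percent of the 7SK-named reads of the set on the y axis, with a line for each library; left, sequences that share an 18-mer with a piRNA cluster sequence, right, those that do not. On the left all 4 libraries peak at 26 nt, with 35.6% and 36.8% of reads in the inputs and 31.2% and 27.7% in the IPs, and on the right the inputs spread up to 36 nt.

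The most abundant 5′ ends were read in many variants that differed by length or by a base. In ENSBTAG00000043171.2 the 10 bases TcctttaggA opened 72.8% and 80.3% of the copy's reads in the inputs and 84.5% and 83.6% in the IPs, in 237 sequences. Of these reads 47.9% and 52.9% were 26 nt long in the inputs and 44.3% and 42.0% in the IPs, and most of the rest were 25 or 24 nt long. TtctttaccA opened 60.6% and 62.7% of the reads of ENSBTAG00000045101.1 in the inputs and 63.2% and 58.6% in the IPs. ENSBTAG00000045413.2 had TctttgcgaC in 44.2% and 47.2% of its reads in the inputs and 47.0% and 47.5% in the IPs. In ENSBTAG00000042596.2 the leading end began with C instead, CtttcaggaT, with 47.1% and 48.5% of reads in the inputs and 52.4% and 52.5% in the IPs, and only 42.3% to 46.3% of that copy's reads began with T. In ENSBTAG00000043768.2 TcaacatgaA opened 88.6% and 87.8% of reads in the inputs and 99.4% and 99.9% in the IPs. Most were 18 nt long, the shortest length listed, so shorter forms of it were not seen.

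Substitutions along a leading end are given by the base of its most abundant sequence, the position counted from 1 at the 5′ end, and the base of the read. In the leading family of ENSBTAG00000043171.2 reads with no substitution were 49.1% and 51.9% in the inputs and 49.9% and 46.6% in the IPs. Reads with G21T were 13.5% and 17.0% in the inputs and 26.8% and 28.2% in the IPs, and the groups did not overlap. Reads with G12T were 11.0% and 10.02% in the inputs and 11.9% and 13.3% in the IPs. In ENSBTAG00000045101.1 the most frequent substitutions were T21C, with 7.95% and 12.7% in the inputs and 9.59% and 9.88% in the IPs, and T11G, with 11.0% and 3.13% in the inputs and 7.09% and 7.44% in the IPs; both groups overlapped. Reads with the leading end of ENSBTAG00000045413.2 or ENSBTAG00000045419.1 carried no substitution. The annotation files list reads under a copy's name only within its own matching rules, so more distant variants are not seen here.

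Single sequences were tested where they reached 10 RPM in 2 libraries. Of 5744 sequences 54 did so, from 7 copies, and all 54 were recurring, 48 began with T and 36 had A at position 10. In TDRKH IP 28 were higher, 0 were lower and 26 did not pass the threshold in edgeR's test over 11786 sequences, of which 41.9% were higher and 19.9% lower. A sequence could pass the filter through the 2 IPs alone, so a rise can be built into its being tested. These counts and the median below describe the tested sequences and not all 5744. A single 7SK sequence was lower at an unadjusted p under 0.05, and DESeq2 called 1 higher, against 198 of all 11786 sequences. The median log2 change of the 54 was 0.93, against 0.70 over all sequences tested. Leaving out either IP gave fewer higher 7SK sequences, and fewer over all sequences as well. The median log2 change of all sequences was then 0.44 without TDRKH IP 1 and 0.52 without TDRKH IP 2. TMM factors made 4 higher and 1 lower, against 667 and 2727 of all 11786, and moved the median of all sequences from 0.70 to 0.02.

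TcctttaggAtggactggttggatct was the most abundant 7SK-named sequence in both groups, with 170 and 273 RPM in the inputs and 257 and 241 RPM in the IPs. The groups overlapped and the log2 change was 0.16 ± 0.24 (SE, adjusted p 0.554). As a share of 7SK reads it was 7.55% and 9.96% in the inputs and 6.99% and 6.42% in the IPs. Its G21T form, TcctttaggAtggactggtttgatct, held 40.8 and 87.9 RPM in the inputs and 156 and 167 RPM in the IPs. That form rose by a log2 change of 1.31 ± 0.29 (adjusted p 0.000360), and the IPs lay above the inputs. The change was 0.87 without input 1 and 1.98 without input 2, and the call was lost with TMM factors (0.65, adjusted p 0.0626) and in DESeq2 (0.68, adjusted p 0.0872). The difference between both forms was not tested.

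TtctttaccAtctgagccactaggga held 98.2 and 111 RPM in the inputs and 168 and 122 RPM in the IPs, which did not pass the threshold (log2 change 0.47 ± 0.26, adjusted p 0.108). TctttgcgaCcccatggactgtagcc went from 84.3 and 76.1 RPM to 126 and 120 RPM (log2 change 0.62 ± 0.26, adjusted p 0.0376), and this call was lost without input 2 or without either IP, at adjusted p of 0.0756, 0.233 and 0.177. The 25 nt TcctttaggAtggactggttggatc held 75.0 and 116 RPM in the inputs and 138 and 144 RPM in the IPs (log2 change 0.55 ± 0.26, adjusted p 0.0655). The 5 sequences together made up 20.8% and 24.2% of 7SK reads in the inputs and 23% and 21.2% in the IPs. No single sequence therefore carried the family's total.

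The 3 sequences with the largest changes past the threshold were scarce in the inputs and passed the filter through the IPs alone, so a rise was built into their being tested. The 22 nt TtctttaccAtctgagccacta is a shorter form of the leading sequence of ENSBTAG00000045101.1 and went from 3.71 and 1.48 RPM to 13.4 and 10.4 RPM (log2 change 2.26 ± 0.58, or 3.0 without input 1 and 1.68 without input 2). TttcaggatTtgaaatagctcaa of ENSBTAG00000042596.2 lacks the first C of that copy's leading end and went from 1.85 and 8.86 RPM to 20.5 and 31.9 RPM (log2 change 2.20 ± 0.49, or 1.56 without input 1 and 3.81 without input 2). TttagtcgtGtccgactctgtgcga of ENSBTAG00000045419.1 went from 0.926 and 5.17 RPM to 12.4 and 17.6 RPM (log2 change 2.19 ± 0.57, or 1.53 without input 1 and 3.99 without input 2). Each rested on fewer than 20 reads in the inputs, and none kept its call in DESeq2.

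Other structural RNAs were measured the same way. The 7SL RNA of the signal recognition particle was at 204 and 219 RPM in the inputs and 9.43 and 9.67 RPM in the IPs (log2 change -4.47 ± 0.11, adjusted p 1.41e-08), but turned to 0.29 (adjusted p 0.340) with bovine microRNA reads as library size. Y RNAs, which bind the Ro60 protein, fell from 684 and 857 RPM to 18.2 and 25.2 RPM (log2 change -5.15 ± 0.16, adjusted p 6.05e-08), and with that library size the change was -0.41 and the call was lost (adjusted p 0.101). U6, the small nuclear RNA at the catalytic centre of the spliceosome, went from 678 and 755 RPM to 481 and 523 RPM, a log2 change of -0.52 ± 0.07 (adjusted p 0.000347) that turned to 0.82 with TMM factors. In all, 9 of 11 other families were tested, with 1 higher, U5, named after its values were seen (log2 change 0.53), and 8 lower.

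The log2 ratio of 7SK to 7SL reads was 3.56 ± 0.12 (SD, n = 2) in the inputs and 8.60 ± 0.01 in the IPs, and this ratio does not depend on library size. For 7SK to Y RNA it was 1.70 ± 0.03 and 7.44 ± 0.31. The ratio of 7SK to U6 moved less, from 1.80 ± 0.09 to 2.89 ± 0.07. The exact permutation p was 0.33 in each, the smallest the design allows. Sequences named for at least 4 copies, with a log2 change of -5.93, lay nearer to 7SL and Y RNA than to the 7SK total.

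The share of recurring reads also differed between families. It was 0% of Y RNA reads in all libraries, and 0.909% and 1.69% of 7SL reads in the inputs, against 95.7% and 96.1% for 7SK. For U6 it was 82.7% and 78.5% in the inputs and 97.8% and 97.2% in the IPs, and for U5 83.7% and 76.7%, then 97.8% and 96.7%. In 7SL it reached 51.4% and 54.2% in the IPs, from 105 and 107 reads in all. Y RNA and the inputs of 7SL show how little recurrence was found in those families by the same rule.

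Listed reads numbered 1079364 and 1354003 in the inputs and 11138905 and 11060320 in the IPs, so that 1 read is worth more RPM in an input and the values of scarce sequences are less precise there. piRNA cluster names covered 88.8% and 87.8% of the input reads and 96.9% and 96.8% of the IP reads. All 10 marker microRNAs looked at were lower in both IPs, and over all tested names 58.5% were called lower. Those abundant in oocytes fell as well. miR-10a went from 1796 and 2195 RPM to 15.8 and 24.0 RPM. miR-30d went from 986 and 1073 RPM to 8.39 and 10.8 RPM, and miR-92a from 915 and 1002 RPM to 13.3 and 13.9 RPM. Of the 4 of follicle cells, miR-21 was at 199 and 227 RPM in the inputs and 0.988 and 2.26 RPM in the IPs, and miR-132 at 0 in the IPs. Liver miR-122 was at 435 and 335 RPM in the inputs and leukocyte miR-150 at 10.2 and 10.3 RPM. The part of RNA from other cells in the 7SK values was not tested.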

How the data were processed

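The deposited files hold, for each of 4 libraries, sequences with whole read counts and names given by unitas, made by the authors, per the file headers and names. For the annotation settings, the genome build and earlier steps, the sources used here give nothing. Per the labels' protocols, RNA was taken with TRIZOL and sequenced after the NEXTflex Small RNA-Seq Kit V3. All listed sequences were 18 to 36 nt long. Unlisted reads were not analysed here, and the counts include PCR copies.

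Counts were divided equally among a sequence's names, with bracketed notes removed, and rounded sums were tested with edgeR 4.0.16 in R 4.3.3 (glmQLFit and glmQLFTest, filterByExpr, total listed reads as library size, no further factor). Sequences needed 10 RPM in 2 libraries. P-values were adjusted by Benjamini and Hochberg over the whole table, with a threshold of 0.05, and standard errors were taken from the log2 change and the F statistic. Recurrence used 18-mers and contigs used 13-mers, extended by the most read base. Shares were compared by the exact permutation test. Tables were made in Python 3.11.15 with pandas 2.3.3 and numpy 2.4.6, tests of shares with scipy 1.17.1, and figures with matplotlib 3.10.9. The tests were tested on simulated data.

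The members, lists and rules were chosen with earlier results of these data known. The text names the 10 tested copies most abundant in whichever group was higher, the 2 scarcest copies, the 5 most abundant sequences of either group and the 3 of largest change past the threshold in either direction. Alternatives were TMM factors, DESeq2 1.42.0, other library sizes and filters, other ways of counting shared names, a replicate block and leaving out each library. Those with piRNA cluster reads as library size, for the other structural RNAs also those with reads without a piRNA cluster name as library size and with at least 10 RPM, and the division by recurrence or number of names, were added after the data were seen.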

Additional observations from a re-analysis of the deposited data

How the results depend on the processing

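The rise of the 7SK total kept its direction under all 15 alternatives, with log2 changes of 0.15 to 5.33. It missed the threshold with no filter (0.57, adjusted p 0.102) and with each distinct sequence counted once (0.15). Leaving out 1 library gave 0.44 to 0.72. Higher copies numbered 17 with TMM factors, with microRNA reads and with reads without a piRNA cluster name as library size, 16 in DESeq2, 2 with no filter, and 4 to 9 without 1 library. Lower copies numbered 0 of 20 with microRNA reads, 7 of 53 with no filter, 1 of 15 at 10 RPM and 22 of 39 with whole counts for every name. Over all names these settings gave 506 of 5452, 2002 of 31100, 1086 of 2308 and 4465 of 8102 lower. Of all 5452 names, TMM factors made 1846 higher and microRNA reads 3301. Reads without a piRNA cluster name made 2064 of them higher, and DESeq2 1835. With no filter 255 of 31100 were higher. Higher sequences numbered 4 with TMM factors, 54 with microRNA reads or reads without a piRNA cluster name, 1 in DESeq2, 50 at 3 RPM, 13 at 30 RPM, and 3 to 31 without 1 library. Of all 11786 sequences, microRNA reads made 11243 higher and reads without a piRNA cluster name 9501, so most sequences rose with these library sizes. TMM factors made 667 of them higher and DESeq2 198. At 3 RPM 7812 of 36260 were higher, and at 30 RPM 2040 of 3887. Lower sequences numbered 1 with TMM factors and with piRNA cluster reads, against 2727 and 2369 of all 11786. At 3 RPM 4 of 161 were lower, against 7597 of 36260. Of the other families, 2 were higher and 5 lower with TMM factors, 5 and 1 with microRNA reads, 4 and 4 with reads without a piRNA cluster name, 4 and 3 in DESeq2, 0 and 5 with no filter, and 0 to 1 were higher without 1 library. The first-T difference was 1.09 points and -5.76 with each distinct sequence counted once. The log2 change of widely named sequences was -5.93, and -4.95 for at least 3 copies, -3.41 for all non-recurring reads, -6.06 with piRNA cluster reads and -1.18 with microRNA reads. With each distinct sequence counted once, ENSBTAG00000043171.2 (-0.44), ENSBTAG00000045101.1 (-0.039) and ENSBTAG00000042596.2 (-0.20) reversed. Under TMM factors and DESeq2 so did TCCTTTAGGATGGACTGGTTGGATCT (-0.50, -0.48; also -0.13 to 0.55 without 1 input), TTCTTTACCATCTGAGCCACTAGGGA (-0.21, -0.18), TCCTTTAGGATGGACTGGTTGGATC (-0.12, -0.086) and TCTTTGCGACCCCATGGACTGTAGCC (-0.061, -0.037). 7SL turned to 0.29 with microRNA reads. U6 turned to 0.82 (TMM factors), 4.24 (microRNA reads), 1.37 (reads without a piRNA cluster name) and 1.61 (DESeq2). Beyond fewer features tested under stricter filters and fewer libraries, the cause was not tested. Input and IP replicates with the same number did not deviate together (r = 0.0066 over 5452 names). With the replicate block the total changed by 0.58, 10 copies were higher and 3 lower, 27 sequences were higher, and 1 other family was higher and 8 lower. The transcripts of the 7SK ribonucleoprotein were not run, because the files name predicted transcripts without gene symbols.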
